A study of Mus musculus with 45 samples.

Results

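Otx1, Six3, Hesx1, Rax, Lhx2, Lhx5, Emx2, En1 and En2 are 9 of the 54532 genes in the count table. They were chosen by symbol, as transcription factors known from the forebrain and midbrain. RNAseq was performed on neuroepithelial organoids grown in Matrigel from R1, a wild-type mouse embryonic stem cell line, by clonal growth. The medium was N2B27 in all groups. Collection took place at day 2, before treatment, and at 7 later times counted from day 2 (8, 18 and 30 h, and from there every 12 h to 78 h), with 250 nM all-trans retinoic acid (RA) or without. Each of these 15 groups had 3 libraries, described as biological replicates, which gave 45 libraries in all. The sample titles give the same times, while the treatment protocol of the samples gives another unit for the dose and later times for the last collections. The dose and times used here are those of the series description.

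All 9 genes encode homeodomain transcription factors. In the embryo, the anterior end of the neural plate makes Otx, Six3, Rax, Hesx1, Lhx2, Lhx5 and Emx2 for the forebrain and the eye, and the En genes mark the midbrain and the boundary between midbrain and hindbrain. RA is a morphogen that is made in the trunk mesoderm and gives neural tissue a posterior fate, and in the head it is broken down by Cyp26 enzymes.

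The working description of these genes was an anterior identity without RA that is lost with RA. No gene that could be tested was called lower with RA. Six3 and Rax had too few counts to be tested at any time point, and Otx1 was tested at 2 time points only, so a loss of these genes could not be seen. Of 63 combinations of gene and time point, 38 had enough counts to be tested between RA-treated and untreated organoids. In 12 of them the gene was higher with RA, and in 0 it was lower, while over all genes tested 1.26% to 8.17% were higher and 0.537% to 5.99% lower at a time point. The 12 belonged to 4 genes, namely Lhx2, Emx2, Lhx5 and En2, and 4 of them were calls of Emx2 from 42 to 78 h, where it passed the filter on low counts through the RA-treated libraries. DESeq2 called 13 higher and 0 lower, and 3 of the edgeR comparisons had an unadjusted p under 0.05 with a lower level. Otx2, the relative of Otx1, was not among the 9 genes and was lower with RA at each of the 7 time points.

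Levels are in CPM, counts scaled to library size, with TMM factors over the 45 libraries. The libraries held 17298632 to 39688686 counts each, and a count of 3, taken as the limit of detection, was 0.08 to 0.183 CPM. This limit covers counting error only. None of the 45 pairs of replicates agreed within sampling noise, and each library was kept as a sample. The mean chi-square per gene, a measure of this disagreement, was 98.04 and 78.55 for RA-treated 30 h replicate 2 against replicates 3 and 1. It was 39.71 and 37.05 for RA-treated 8 h replicate 3 against replicates 1 and 2, and 1.921 to 13.39 for the other pairs. Comparisons used edgeR's quasi-likelihood test. A gene was called if its p, adjusted after Benjamini and Hochberg over all genes tested, was under 0.01 and its log2 fold change lay outside -1 to 1. In organoids as a whole, fewer cells of a type and less RNA per cell cannot be told apart.

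Of 5 genes known to respond to RA (Cyp26a1, Rarb, Dhrs3, Hoxb1 and Stra8), all were higher with RA at 18 h. Cyp26a1, which encodes an RA-degrading enzyme, had 257 to 288 CPM in the RA-treated libraries at 18 h and 2.26 to 3.09 CPM in the untreated ones. Rarb, an RA receptor gene that RA itself induces, had 42.8 to 46.4 CPM with RA at 18 h and 0.66 to 0.993 CPM without. Later the list was mixed. Rarb was called higher at all 7 time points, with 29.7 to 39.3 CPM with RA and 1.91 to 2.38 CPM without at 78 h. Cyp26a1 was not called from 54 h on, with log2 fold changes of 0.69 ± 0.14 at 54 h (SE, adjusted p = 0.0023), 0.41 ± 0.15 at 66 h (adjusted p = 0.05) and -0.54 ± 0.17 at 78 h (adjusted p = 0.023), and Hoxb1 was lower from 54 h on. Of the 5 genes, 2 (Rarb and Stra8) were higher at 66 h and at 78 h. The 5 neural progenitor markers (Sox1, Sox2, Pax6, Nes and Hes5) summed to 314 to 989 CPM over all 45 libraries, and all 5 reached 1 CPM. Genes of the Y chromosome (mean of 4) stood at 1.22 to 3.65 CPM in 6 libraries and at 22.9 to 89.5 CPM in the other 39. The 6 were RA-treated 8 h replicate 3, all 3 untreated libraries at 30 h, and RA-treated 30 h replicates 1 and 3. Levels at 8 h and 30 h are therefore given by library below for Lhx2, Emx2, Hesx1 and En2, and at 8 h for Otx1. The part of these 6 libraries in the results was not tested.

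Sequences next to the start of Lhx2, which was called higher with RA, and of En1, which was not, are shown here for reference. RefSeq promoter windows of 300 bases (250 before and 50 after a start, build GRCm38.p6) were matched for 5 of the genes, Lhx2 having a pair of them. Of these 6 windows, 0 held AGGTCA, the hexamer that RA receptors bind, on either strand, while 16.2% of 32544 windows of all genes held it. The window before Lhx2 had 4 copies of the GC box GGGCGG, which 35.9% of all windows held, and the window before En1 had 2 copies of CCAAT, which 37.4% held. Both were searched on either strand, and ATTGG is CCAAT read on the other strand. Capitals mark the GC boxes in Lhx2 (chr2:38339031-38339280, plus strand, 72.8% G or C) and the CCAAT boxes in En1 (chr1:120602237-120602417, plus strand, 55.2% G or C), and both stretches end just before the annotated gene.
Lhx2: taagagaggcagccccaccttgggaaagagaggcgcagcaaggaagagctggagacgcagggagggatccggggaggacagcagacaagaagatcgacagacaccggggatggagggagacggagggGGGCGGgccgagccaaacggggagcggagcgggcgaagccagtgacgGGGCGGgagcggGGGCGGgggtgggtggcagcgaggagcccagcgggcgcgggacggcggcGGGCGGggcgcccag
En1: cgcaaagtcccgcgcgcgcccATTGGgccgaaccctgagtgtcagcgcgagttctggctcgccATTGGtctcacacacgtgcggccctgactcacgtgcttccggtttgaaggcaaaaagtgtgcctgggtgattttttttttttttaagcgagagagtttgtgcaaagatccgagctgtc

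Lhx2 and Emx2 were the genes that RA raised early. Lhx2 is a LIM-homeodomain factor of the cerebral cortex and the eye, and Emx2 is a factor of the dorsal cortex. At day 2, Lhx2 stood at 0.87, 0.55 and 0.457 CPM, and Emx2 at 0.249, 0.2 and 0.332 CPM. Both were thus at low levels before treatment. At 8 h, Lhx2 had 1.21, 0.845 and 0.674 CPM without RA and 2.6, 2.04 and 0.663 CPM with RA, and the groups overlapped through RA-treated replicate 3 alone. Emx2 had 0.823, 0.696 and 0.481 CPM without RA and 1.64, 0.68 and 0.332 CPM with RA. Its groups overlapped, and replicate 3 was again the lowest. RA-treated 8 h replicate 3 is one of the 6 libraries with low counts of Y chromosome genes. Neither gene was called at 8 h, with log2 fold changes of 0.98 ± 0.49 (SE, adjusted p = 0.24) for Lhx2 and 0.44 ± 0.56 (adjusted p = 0.66) for Emx2. Without RA-treated replicate 3, Lhx2 was called at 8 h, with a log2 fold change of 1.35 and an adjusted p of 0.0024.

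At 18 h both genes were called higher. Lhx2 had 1.13, 0.825 and 0.614 CPM in untreated organoids and 2.43, 2.43 and 1.57 CPM in RA-treated organoids. Emx2 had 0.722, 0.495 and 0.453 CPM in untreated organoids and 2.26, 1.61 and 1.74 CPM in RA-treated organoids. All RA-treated libraries lay above all untreated ones for both genes. The log2 fold changes were 1.38 ± 0.28 (SE, adjusted p = 0.0012) for Lhx2 and 1.79 ± 0.28 (adjusted p = 0.00017) for Emx2. These were 2 of the 5 genes tested at 18 h, where 8.17% of all genes tested were higher and 2.76% lower. All 6 libraries of this time point were in the higher range of Y chromosome genes.

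At 30 h Lhx2 reached its highest group mean, 3.71 ± 1.54 CPM (SD, n = 3) with RA. The RA-treated libraries had 2.81, 5.49 and 2.83 CPM, and the untreated ones 0.602, 0.427 and 0.46 CPM. Every RA-treated library was above every untreated one, and replicate 2, the RA-treated library with high Y chromosome genes, was the highest. The log2 fold change was 2.88 ± 0.39 (SE, adjusted p = 0.0019). It was 2.44 (adjusted p = 1.6e-06) without that library, whose 5 companions are all low in Y chromosome genes. The call was lost when any untreated library was left out, with log2 fold changes of 2.75 to 3.02 and adjusted p-values of 0.013 to 0.016. Emx2 had 3, 26 and 8 counts with RA (0.0979, 0.797 and 0.241 CPM) and 0, 1 and 0 counts without, and could not be tested. Its lowest group means in either arm were those at 30 h. Of the 4 genes tested at 30 h, Lhx2 alone was called, where 5.98% of all genes were higher and 2.48% lower.

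After 30 h the levels of Emx2 with and without RA stayed apart. In untreated organoids it had 0.157, 0.342 and 0.18 CPM at 42 h and 0.468, 0.0595 and 0.167 CPM at 78 h. In RA-treated organoids it had 1.49, 1.26 and 0.747 CPM at 42 h and 1.19, 0.751 and 1.26 CPM at 78 h. No RA-treated library fell below an untreated one at 42, 54, 66 or 78 h. The log2 fold changes of Emx2 were 2.32 ± 0.42 at 42 h (SE, adjusted p = 0.00095), 2.02 ± 0.39 at 54 h (adjusted p = 0.0014), 1.97 ± 0.28 at 66 h (adjusted p = 0.00024) and 2.28 ± 0.49 at 78 h (adjusted p = 0.0029). Its untreated libraries held 2 to 13 counts at these times, so that the gene passed the filter through the RA-treated libraries. The call at 54 h was lost without untreated replicate 2 or 3 (adjusted p = 0.01 in both), and that at 78 h without untreated replicate 2 or 3 (adjusted p = 0.012 in both).

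For Lhx2 the arms drew closer over the same hours. It had 0.786, 1.14 and 0.865 CPM without RA and 3.5, 2.41 and 2.16 CPM with RA at 42 h, when it was called with a log2 fold change of 1.5 ± 0.26 (SE, adjusted p = 0.00076). At 54 h the log2 fold change was 1.17 ± 0.34 with an adjusted p of 0.014, just short of a call. DESeq2 called it there with a log2 fold change of 1.17 and an adjusted p of 0.0097. At 66 and 78 h the values were 0.65 ± 0.21 (adjusted p = 0.031) and 0.49 ± 0.21 (adjusted p = 0.082). By 78 h the untreated libraries had 1.26, 1.34 and 1.76 CPM and the RA-treated ones 2.29, 1.64 and 2.14 CPM, and the groups overlapped. The difference of the Lhx2 effect between 78 and 42 h, tested as an interaction, was -1.03 ± 0.34 on the log2 scale (SE, adjusted p = 0.04) and was not called.

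**Figure D1:**
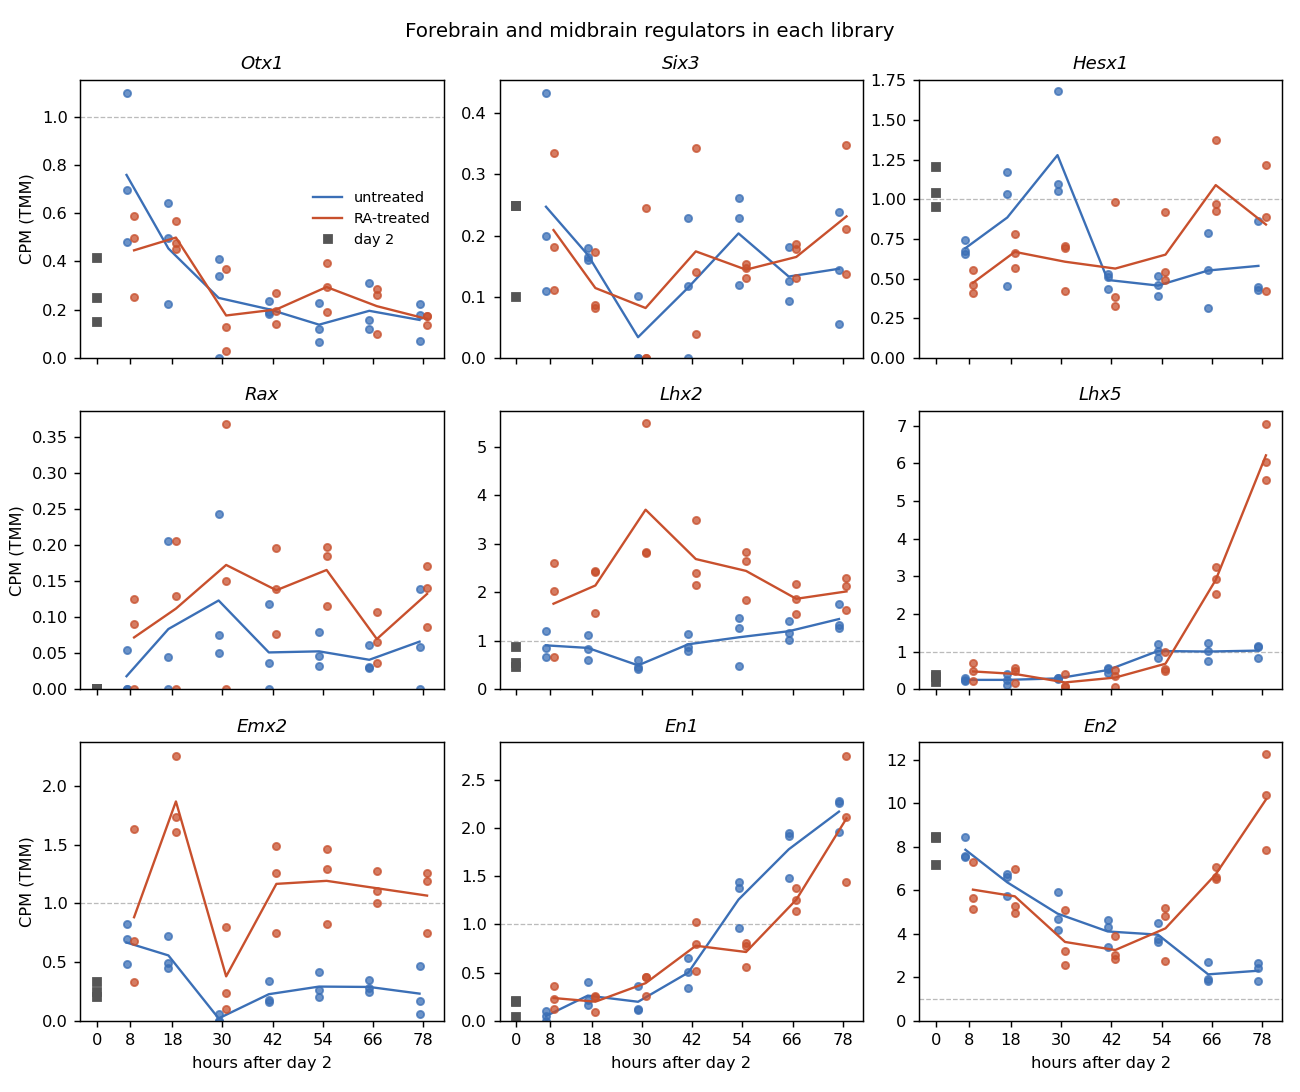
CPM of the 9 genes (vertical axis, linear, from 0) in each library against hours after day 2. Grey squares are day 2, blue circles untreated and red circles RA-treated libraries, lines join the means of 3 libraries and the dashed line marks 1 CPM. From 18 h on, Emx2 with RA lies above the untreated libraries at each time point and Lhx2 up to 66 h, Lhx5 and En2 diverge at 66 and 78 h, and Otx1, Six3 and Rax stay low in both arms.

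Lhx5 and En2 were raised late. Lhx5 is a LIM-homeodomain factor of the forebrain that early neurons further back also make. It had 1.01, 0.838 and 1.21 CPM without RA and 1, 0.493 and 0.554 CPM with RA at 54 h, so that the RA-treated libraries lay below the untreated ones or within their range. At 66 h it had 1.03, 1.24 and 0.753 CPM without RA and 3.24, 2.94 and 2.54 CPM with RA. At 78 h it had 1.11, 0.833 and 1.14 CPM without RA and 5.56, 6.04 and 7.04 CPM with RA. The untreated libraries thus stayed near 1 CPM, and at 66 and 78 h every RA-treated library was above them. The log2 fold changes of Lhx5 were -0.76 ± 0.51 at 42 h (SE, adjusted p = 0.25), -0.61 ± 0.35 at 54 h (adjusted p = 0.17), 1.54 ± 0.21 at 66 h (adjusted p = 0.00023) and 2.6 ± 0.18 at 78 h (adjusted p = 7.2e-07).

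En2, a factor of the midbrain and anterior hindbrain, was the most abundant of the 9 genes per length of transcript at day 2, with 2.26 ± 0.21 CPM per kb of exons (SD, n = 3). Its day 2 libraries had 8.45, 7.14 and 8.43 CPM. Without RA it fell to 3.38, 4.34 and 4.62 CPM at 42 h and to 2.66, 2.41 and 1.84 CPM at 78 h. With RA it had 2.84, 3.89 and 3.03 CPM at 42 h, then 6.63, 7.09 and 6.5 CPM at 66 h and 12.3, 10.4 and 7.84 CPM at 78 h. The arms overlapped at 42 h and were fully apart at 66 and 78 h. At 8 h En2 had 8.45, 7.55 and 7.6 CPM without RA and 7.3, 5.66 and 5.14 CPM with RA, each RA-treated library being lower. At 30 h it had 4.17, 4.7 and 5.92 CPM without RA and 2.54, 5.12 and 3.22 CPM with RA. There the arms overlapped through RA-treated replicate 2 alone, the library high in Y chromosome genes. With single libraries left out, the log2 fold change at 30 h was -0.79 to -0.24, with no call. Over the alternative settings it was -0.95 to -0.29, again with no call. These settings include a fit in which RA-treated replicate 1 was the only RA-treated library. With the settings given above, the log2 fold changes of En2 lay between -0.43 and 0.08 from 8 to 54 h, with no call. They were 1.67 ± 0.16 at 66 h (SE, adjusted p = 1.9e-05) and 2.17 ± 0.19 at 78 h (adjusted p = 4.9e-06).

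The change of the RA effect between 42 and 78 h was called for both genes, at 3.36 ± 0.50 on the log2 scale for Lhx5 (SE, adjusted p = 0.00018) and 2.49 ± 0.28 for En2 (adjusted p = 1.6e-05). These were 2 of the 6 genes tested, where 5.81% of all genes had a higher effect at 78 h and 6.79% a lower one. Between 18 and 42 h, a change of the RA effect was called for 0 of 7 genes tested, where 8.26% of all genes had a higher effect at 42 h and 7.92% a lower one. Of the 7, 0 had an unadjusted p under 0.05 and DESeq2 called 0. The estimates ran from -1.55 ± 0.82 for Lhx5 to 0.98 ± 0.68 for En1 (SE), so changes of that size could be missed. All libraries of 66 and 78 h carry library numbers of a later series than those of 42 h, so the series and the time cannot be told apart. At 30 h, RA-treated replicates 2 and 3 are of the later series, and RA-treated replicate 1 and all untreated libraries of the earlier one. At 54 h, untreated replicate 3 alone is of the later series. The series and RA treatment are thus partly mixed at 30 and 54 h.

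Markers of other cell types also differed between the arms at 78 h, some of them from earlier times on. Of 5 neuronal markers, 3 (Tubb3, Dcx and Elavl4) were higher with RA at 78 h and 1 (Stmn2) was lower, with a summed level of 291.8 to 310.5 CPM with RA and 262.6 to 277.8 CPM without. Of 4 surface ectoderm and placode markers, 2 were tested at 78 h and both (Tfap2a and Eya1) were higher, with 16.8 to 20.3 CPM in sum with RA and 6.65 to 8.03 CPM without. Endoderm markers, 5 in all, summed to 20.1 to 21.8 CPM with RA and 3.09 to 3.51 CPM without, with Sox17, Gata6 and Foxa2 higher. Mesoderm markers, also 5, summed to 9.33 to 12.1 CPM with RA and 5.04 to 8.45 CPM without, with Kdr and Meox1 higher and T lower. Krt5 and Dlx5, the other two surface ectoderm markers, had means of 0.27 and 0.30 CPM with RA at 78 h. The 4 neural crest markers summed to 24.0 to 30.8 CPM with RA and 17.5 to 19.2 CPM without, with Tfap2b higher and Foxd3 lower. Epiblast markers, 4 in all and each lower, summed to 95.0 to 151 CPM with RA and 864 to 1022 CPM without. Of 5 pluripotency markers, Klf4 was higher and Pou5f1 lower, and of the 5 neural progenitor markers 0 were called. The sums of both lists overlapped between the arms, at 241 to 425 CPM with RA and 412 to 494 CPM without for pluripotency and at 882 to 989 CPM and 765 to 883 CPM for neural progenitors. Not all of these lists moved late. In sum with RA, endoderm and mesoderm markers stood at 25.5 to 29.4 and 19.9 to 23.5 CPM at 54 h, above their 78 h levels. Epiblast markers with RA were already at 354 to 687 CPM at 8 h. Neuronal, surface ectoderm and neural crest markers with RA had 92.7 to 98.8, 9.24 to 10.9 and 19.8 to 21.5 CPM at 54 h, below their 78 h levels. The part of such cells in the levels of Lhx5 and En2 was not tested.

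Markers differed between the arms at 18 h as well, when Lhx2 and Emx2 were called higher. At 18 h the 5 endoderm markers summed to 15.9 to 18.7 CPM with RA and 2.56 to 3.02 CPM without, and 4 of them (Sox17, Gata4, Gata6 and Foxa2) were higher. Cer1, the fifth, had a mean of 0.07 CPM with RA. The 5 mesoderm markers summed to 31.3 to 33.7 CPM with RA and 4.17 to 6.41 CPM without, but Meox1 was the only one that was higher, and T and Kdr were lower. Mesp1 was at a mean of 0.21 CPM with RA. Pax6, Sox1 and Hes5 of the neural progenitor markers were higher, the 5 summing to 446 to 470.0 CPM with RA and 394 to 426 CPM without. Krt5 and Dlx5 of the surface ectoderm markers were higher, with sums of 5.85 to 6.79 CPM with RA and 5.24 to 6.09 CPM without. The neural crest markers summed to 6.95 to 9.66 CPM with RA and 50.04 to 51.49 CPM without, against 71.95 to 81.79 CPM at day 2. Sox10 was higher, and Foxd3, the 1 gene of this list called lower, had a log2 fold change of -5.95 ± 0.11 (SE). With its highest level before treatment, this sum is not read here as an amount of neural crest cells. All 4 epiblast markers were lower (291 to 330 CPM in sum with RA and 2341 to 2614 CPM without), as was Pou5f1 of the pluripotency markers (656 to 730 CPM and 1135 to 1218 CPM). Of the neuronal markers 0 were called, with sums of 131.0 to 140 CPM with RA and 174 to 177 CPM without. The part of cells with these markers in the levels of Lhx2 and Emx2 was not tested.

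Hesx1 is a repressor of the anterior neural plate and the pituitary. At 8 h it had 0.658, 0.745 and 0.674 CPM without RA and 0.461, 0.408 and 0.553 CPM with RA. At 30 h it had 1.05, 1.1 and 1.69 CPM without RA and 0.424, 0.705 and 0.692 CPM with RA. At both times each RA-treated library was below each untreated library, and the 30 h libraries include 5 of the 6 with low Y chromosome genes. The log2 fold changes were -0.55 ± 0.31 at 8 h (SE, adjusted p = 0.3), -0.44 ± 0.36 at 18 h (adjusted p = 0.32) and -1.06 ± 0.36 at 30 h (adjusted p = 0.061), with no call. Over the alternative settings, a fit with a single RA-treated library included, the value at 30 h was -1.58 to -0.92, also with no call. From 42 h on the RA-treated mean was at or above the untreated one, and at 66 h the log2 fold change was 0.99 ± 0.34 (adjusted p = 0.034), again with no call.

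En1, which like En2 marks the midbrain and later also a class of spinal interneurons, rose in both arms. It had 0.0414, 0.2 and 0.208 CPM at day 2. At 78 h it had 2.27, 1.96 and 2.29 CPM without RA and 2.75, 2.12 and 1.44 CPM with RA, and the untreated libraries lay inside the range of the RA-treated ones. At 54 h it had 0.963, 1.44 and 1.37 CPM without RA and 0.809, 0.559 and 0.775 CPM with RA, all RA-treated libraries being lower. The log2 fold change there was -0.85 ± 0.30 (SE, adjusted p = 0.034) and was not called. At 66 h and 78 h it was -0.49 ± 0.20 (adjusted p = 0.065) and -0.02 ± 0.23 (adjusted p = 0.95).

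Otx1, a partner of Otx2 in forebrain and midbrain, had 0 to 24 counts and at most 1.1 CPM in any library. Its highest group was untreated 8 h, with 1.1, 0.696 and 0.481 CPM, beside 0.252, 0.589 and 0.497 CPM with RA. The groups overlapped, with a log2 fold change of -0.76 ± 0.47 (SE, adjusted p = 0.34), and at 18 h it was 0.07 ± 0.40 (adjusted p = 0.89). From 30 h on Otx1 had too few counts to be tested. Six3, which patterns the most anterior forebrain, had 0 to 12 counts and at most 0.433 CPM, and Rax, a factor of the eye field, had 0 to 12 counts and at most 0.368 CPM. Both had too few counts to be tested at any time point, and 0 libraries of either gene reached 1 CPM. Rax had 0 counts in all 3 day 2 libraries and Six3 had 2 to 6. A difference between the arms was not detectable for them at this depth.

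**Figure D2:**
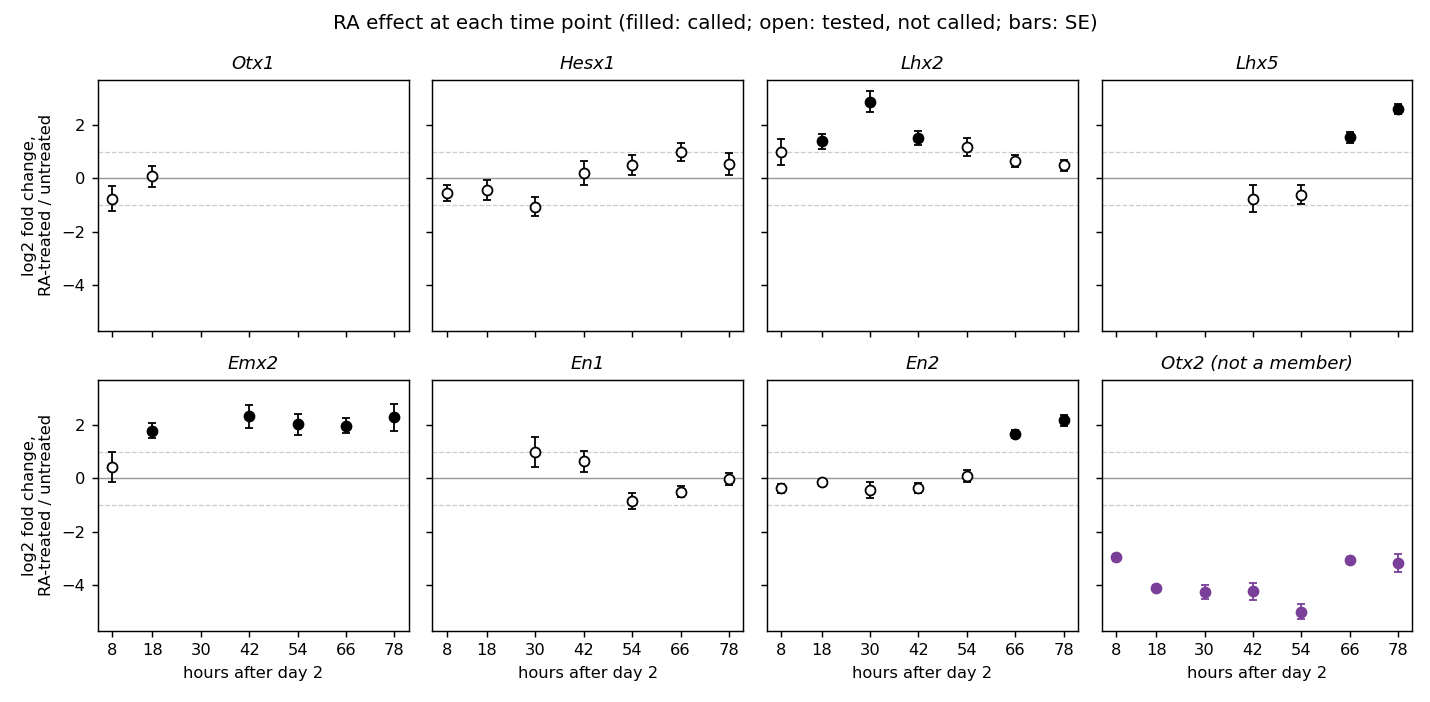
Log2 fold change of RA-treated over untreated organoids (vertical axis) against hours after day 2 for the 7 genes that could be tested and for Otx2. Points are edgeR estimates from 3 libraries per arm with SE, filled where called, and dashed lines mark 1 and -1. The filled points of the 7 genes are all above 0, while Otx2 lies between -5.00 and -2.96.

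Counted by time point, the calls were as follows. At 8 h, 5 genes were tested and 0 were called by edgeR or DESeq2, with 0 at an unadjusted p under 0.05, where 1.26% of all genes tested were higher and 0.537% lower. At 42 h, 2 of 6 were higher, where 7.49% of all genes were higher and 4.96% lower. At 54 h, 1 of 6 was higher, where 7.17% of all genes were higher and 5.99% lower. At 66 h, 3 of 6 were higher, where 7.06% of all genes were higher and 4.44% lower. At 78 h, 3 of 6 were higher, where 7.66% of all genes were higher and 4.03% lower. The median log2 fold change of the genes tested was -0.38 at 8 h (Otx1, Hesx1, Lhx2, Emx2 and En2) and 1.36 at 78 h (Hesx1, Lhx2, Lhx5, Emx2, En1 and En2), over genes that were not the same, beside medians of all genes between -0.01 and 0.04. Genes that passed the filter through the group in which they were high are among those tested, so these counts and medians are a description.

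The course from day 2 asked what each arm did on its own. These comparisons share the 3 day 2 libraries. At day 2 Emx2 had 4 to 8 counts, En1 1 to 5 and Lhx5 4 to 9. Where tested, these genes passed the filter on low counts through the later libraries, so the counts of genes called against day 2 are a description. In untreated organoids at 18 h, 0 of 4 genes tested were called by edgeR or DESeq2, 1 was higher and 1 lower at an unadjusted p under 0.05, and 3.2% of all genes tested were higher and 1.35% lower. At 42 h Hesx1 alone of 4 was called, lower by 1.08 on the log2 scale (-1.08 ± 0.33, adjusted p = 0.0094), where 13.2% of all genes were higher and 8.56% lower. That call was lost with DESeq2 (adjusted p = 0.049), with the replicate number as a block (adjusted p = 0.022) and without any of the 6 libraries (adjusted p of 0.02 to 0.05). En2 had a log2 fold change of -0.93 ± 0.16 (adjusted p = 8.9e-05), short of the limit on size.

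Untreated organoids at 78 h differed more from day 2. En1 was higher by 3.84 ± 0.39 on the log2 scale (SE, adjusted p = 1.3e-07), Lhx5 by 1.73 ± 0.37 (adjusted p = 0.00046) and Lhx2 by 1.21 ± 0.31 (adjusted p = 0.0022), and En2 was lower, with a log2 fold change of -1.81 ± 0.16 (adjusted p = 3.5e-08). These were 4 of 5 genes tested, where 20.3% of all genes were higher and 13.6% lower. The Lhx2 call was lost without day 2 replicate 2 or 3 or untreated replicate 3 (adjusted p of 0.012 to 0.016) and with DESeq2 (adjusted p = 0.015), and Hesx1 was called lower without untreated replicate 3 (log2 fold change -1.26, adjusted p = 0.0092). From 42 to 78 h without RA, En1 was the 1 gene called of 5 tested, with a log2 fold change of 2.07 ± 0.27 (adjusted p = 7.2e-05), where 5.31% of all genes were higher and 2.97% lower.

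With RA, the rise of Lhx2 and Emx2 was also a rise over day 2, where Emx2 held 4 to 8 counts. At 18 h the log2 fold changes over day 2 were 1.75 ± 0.31 for Lhx2 (SE, adjusted p = 1e-04) and 2.79 ± 0.35 for Emx2 (adjusted p = 2.7e-06). They were 2 of 5 genes tested, where 14.5% of all genes were higher and 5.71% lower. At 42 h they were 2.09 ± 0.31 for Lhx2 (adjusted p = 3.3e-05) and 2.13 ± 0.41 for Emx2 (adjusted p = 0.00033), En1 was higher by 2.39 ± 0.52 (adjusted p = 0.00089), and En2 was lower, at -1.28 ± 0.16 (adjusted p = 6e-06). That was 4 of 5 genes tested, where 19.8% of all genes were higher and 12.3% lower. Without RA-treated 42 h replicate 3, Hesx1 was called lower as well, with a log2 fold change of -1.55 and an adjusted p of 0.0044.

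At 78 h with RA, Lhx5 was 4.31 ± 0.26 above day 2 on the log2 scale (SE, adjusted p = 9.4e-09) and En1 3.80 ± 0.45 (adjusted p = 6.6e-06). Emx2 was 2.00 ± 0.38 above (adjusted p = 0.00038) and Lhx2 1.68 ± 0.29 (adjusted p = 2e-04). These were 4 of 6 genes tested, where 22.9% of all genes were higher and 14.5% lower. En2, which was below day 2 in RA-treated organoids at 42 h, was not called at 78 h, at 0.34 ± 0.16 (adjusted p = 0.062). Against day 2 replicate 3 alone, the 1 day 2 library of the later number series, the log2 fold changes were 1.65 for Emx2 (adjusted p = 0.028) and 1.44 for Lhx5 in untreated organoids (adjusted p = 0.024). In these fits the spread came from the 78 h libraries and the single library was assumed to vary like them, so the missed calls say little about the series.

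Per length of transcript, the order of the 9 genes at 78 h differed between the arms. In untreated organoids it ran En1 (0.828 ± 0.069 CPM per kb, SD, n = 3), En2 (0.651 ± 0.119), Hesx1 (0.465 ± 0.197), Lhx5 (0.383 ± 0.064) and Lhx2 (0.33 ± 0.061), with Emx2, Otx1, Six3 and Rax below 0.1. Each of these 5 differed from its neighbour in that order by less than the summed SDs. In RA-treated organoids it ran En2 (2.88 ± 0.63), Lhx5 (2.31 ± 0.28), En1 (0.801 ± 0.251), Hesx1 (0.674 ± 0.321), Lhx2 (0.46 ± 0.077) and Emx2 (0.355 ± 0.092), and the gap between Lhx5 and En1 was the only one above the summed SDs among these 6.

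The relatives of these genes did not move alike. Otx2, which specifies forebrain and midbrain and is also made by the epiblast, had 233 to 264 CPM without RA and 10.7 to 17.6 CPM with RA at 18 h, against 230 to 255 CPM at day 2. Its log2 fold change was -4.10 ± 0.12 at 18 h (SE, adjusted p = 2.8e-11) and -3.17 ± 0.33 at 78 h (adjusted p = 1.7e-05). Untreated Otx2 itself declined to 63.2 to 66.3 CPM at 78 h. Otx1, by contrast, lay under Otx2 in every group, and per length its highest group mean was 0.14 CPM per kb. Epiblast markers beside Otx2 moved with it, with Fgf5, Pou3f1 and Dnmt3b lower with RA from 18 h on, and their part in the level of Otx2 was not tested.

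Lhx1, the closest relative of Lhx5, was already called higher with RA at 18 h. It had 0.213 to 0.454 CPM without RA and 14.2 to 15.8 CPM with RA at 18 h, with a log2 fold change of 5.52 ± 0.18 (SE, adjusted p = 9e-11), while Lhx5 had 0.406, 0.248 and 0.107 CPM without RA and 0.174, 0.495 and 0.565 CPM with RA and was not tested. At 78 h Lhx1 had 5.76 to 7.77 CPM with RA and a log2 fold change of 3.62 ± 0.22 (adjusted p = 2.1e-07). Lhx1 is also made by mesoderm. Six6, Emx1 and Lhx9, the relatives of Six3, Emx2 and Lhx2, had at most 0.674, 0.363 and 1.68 CPM in any library. Lhx9 was tested at 8 h only, with a log2 fold change of 0.47 ± 0.61 (adjusted p = 0.66), and the other two were not tested.

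**Figure D3:**
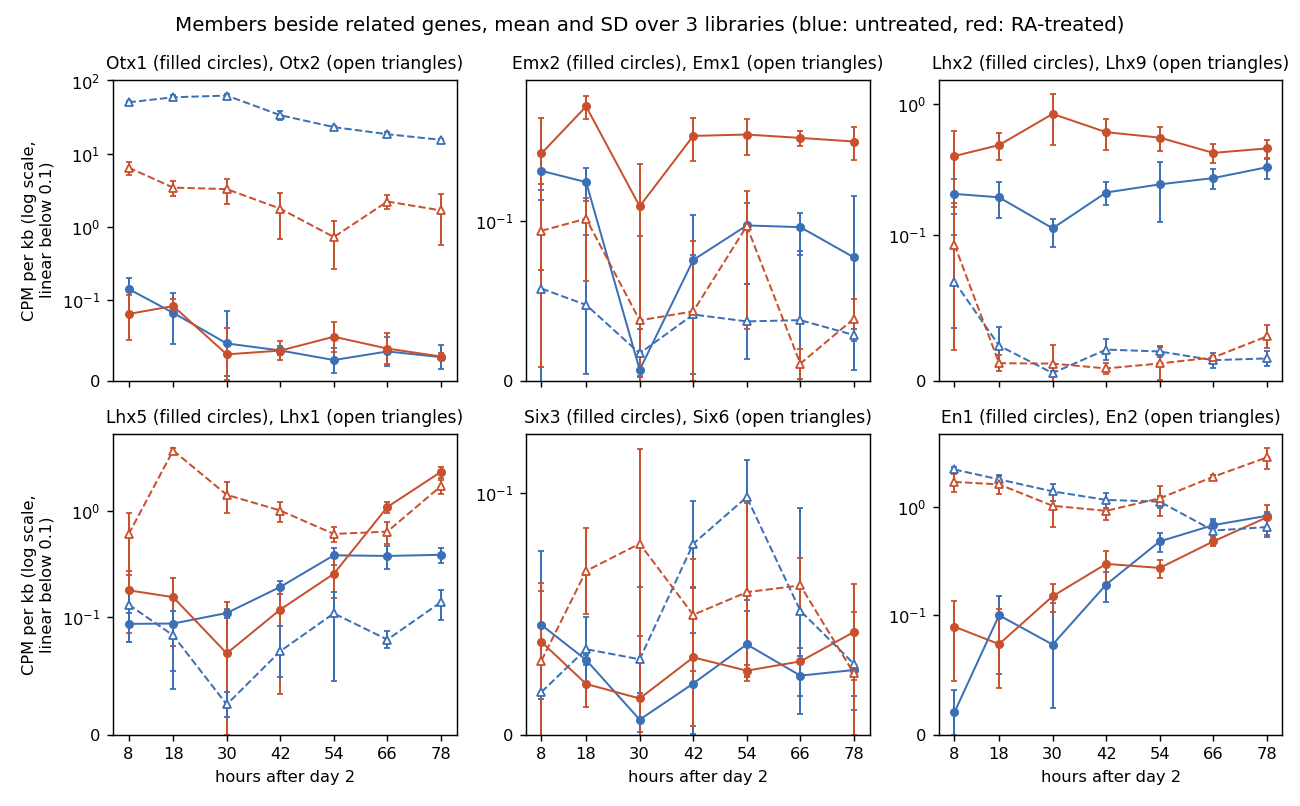
CPM per kb of exons (vertical axis, log scale above 0.1 and linear below) against hours after day 2 for members (filled circles) and a related gene (open triangles), blue without RA and red with RA, as mean and SD over 3 libraries. Otx2 separates the arms at every time point while Otx1 does not, and Lhx1 with RA peaks at 18 h while Lhx5 with RA rises at 66 and 78 h.

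Other anterior genes were counted on a list of 21. At 18 h, 8 were tested, 5 were higher with RA and 1, Otx2, was lower. At 42 h, 7 were tested, 4 were higher (Vax2, Pax6, Dmbx1 and Lhx1) and 1, Otx2, was lower, with a median log2 fold change of 1.42 beside 0.01 for all genes. Pax6, made along most of the neural tube as well as in the eye, had 149 to 170 CPM with RA and 27.3 to 37.9 CPM without at 42 h, a log2 fold change of 2.33 ± 0.11 (SE). Dmbx1, a midbrain homeobox gene, had 1.85 to 2.42 CPM with RA and 0.761 to 0.902 CPM without. At 78 h, 11 were tested, 6 were higher and 3 lower. The shares over all genes were 8.17% higher and 2.76% lower for the 18 h comparison. They were 7.49% higher and 4.96% lower for the 42 h comparison, and 7.66% higher and 4.03% lower for the 78 h comparison.

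Genes of the boundary between midbrain and hindbrain, with which the En genes act, went in both directions. Of 11 genes tested at 42 h, 4 were higher with RA (Pax2, Wnt1, Lmx1a and Lmx1b) and 5 were lower (Pax5, Fgf8, Fgf17, Gbx2 and Cnpy1), with a median log2 fold change of 0.22, where 7.49% of all genes were higher and 4.96% lower. Pax2 had 2.79 to 4.19 CPM with RA and 0.354 to 0.469 CPM without, a log2 fold change of 3.15 ± 0.27 (SE). Wnt1, the signal of the posterior midbrain that is also made along the dorsal midline, had 1.72 to 2.71 CPM with RA and 0 counts in all 3 untreated libraries. Lmx1a and Lmx1b, LIM-homeodomain genes, had log2 fold changes of 3.11 ± 0.32 and 2.24 ± 0.12. At 78 h, 6 of the 11 were higher and 3 lower (7.66% and 4.03% of all genes), and En2 was then higher while En1 was not called.

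Possible partners of the homeodomain factors were counted in the same way. The list held 15 genes of the Groucho family, LIM-only proteins and LIM cofactors. Whether each acts with or against the homeodomain factors here was not tested. At 42 h, 14 were tested, 4 were higher with RA (Tle2, Tle6, Lmo1 and Lmo3) and 0 were lower. The median log2 fold change of the 14 was 0.28, where again 7.49% of all genes were higher and 4.96% lower. Tle6 had 12.6 to 14.7 CPM with RA and 2.63 to 2.93 CPM without, and Tle2 had 2.87 to 4.47 CPM with RA and 0.511 to 0.757 CPM without. Lmo3, which binds LIM partners, had 1.73 to 2.14 CPM with RA and 0.228 to 0.469 CPM without. Ldb1, the common cofactor of LIM-homeodomain proteins, was tested and not called.

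**Figure D4:**
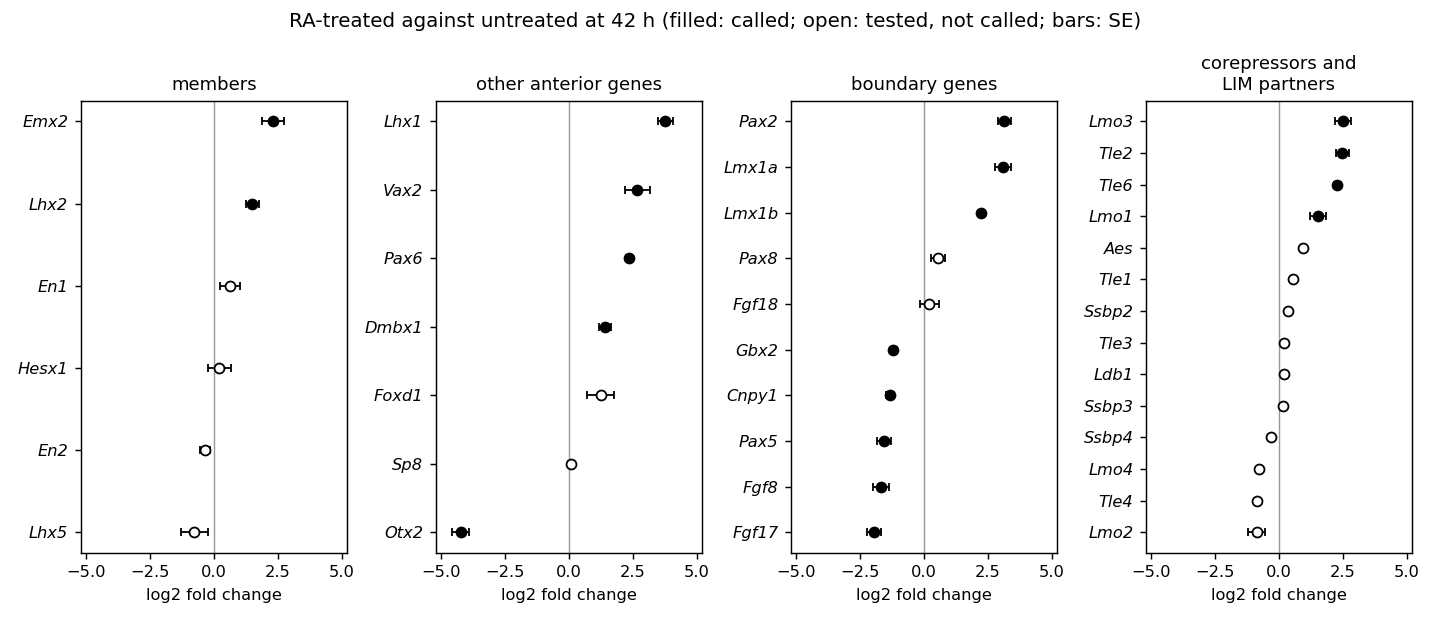
Log2 fold change of RA-treated over untreated organoids at 42 h (horizontal axis, SE bars) for the tested members, other anterior genes, boundary genes and partners, filled where called. Wnt1, with 0 counts in the untreated libraries, is left out. Emx2 and Lhx2 are the called members, Otx2 is the lowest point of the anterior genes at -4.23, and the boundary genes lie on both sides of 0.

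For the members that averaged 1 CPM or more, the 2 genes with the most similar course over the 45 libraries were sought among 14314 genes on log2(CPM + 1). For Lhx2 they were Mxd4 (Pearson r = 0.876) and Gm15050 (r = 0.873). For Lhx5 they were Dcx, a gene of young neurons (r = 0.955), and Scrt2, a repressor made in neurons (r = 0.936). By Spearman's rho these ranked 12 (0.809) and 548 (0.684), so that Scrt2 was close by Pearson's r alone, while the genes named for Lhx2 and En2 ranked 4 to 9. For En2 they were Esam (r = 0.838) and Tfap2a, an epidermal and neural crest factor (r = 0.837). Dcx had 3.93 to 5.79 CPM without RA and 40.5 to 54.8 CPM with RA at 78 h, the libraries in which Lhx5 was highest. The 45 libraries fall into 15 groups that these genes share, so the coefficients are a description.

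Positions are given on GRCm38 from GENCODE M21. Lhx2 is on chromosome 2 (38339281 to 38369733), Emx2 on 19 (59458372 to 59465357), Lhx5 on 5 (120431699 to 120441223) and En2 also on 5 (28165694 to 28172166), all on the plus strand, and reads were counted over their exons. Emx2 shares 264 bases of exon with Emx2os on the opposite strand, which had 0 to 13 counts in any library. Lhx5 shares 69 bases with Gm27199 (0 to 8 counts), Six3 shares 106 bases with Six3os1 (0 to 27 counts), and Rax shares 27.4% of its exon length with Raxos1 (0 to 2 counts). The strand setting of the counting is not given in the sources used here, so reads of such pairs cannot be told apart.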

How the data were processed

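RNAseq counts of 45 libraries were analysed. According to the submitters' processing notes, the authors trimmed reads with Trim Galore 0.5.0, used Bowtie2 2.3.4.1 and counted reads per gene with featureCounts (Subread 1.6.2), on GRCm38. The paper states that Bowtie2 served to filter out abundant sequences and that STAR aligned the reads. Libraries were poly(A)-selected with a directional kit. The deposited values are raw counts, not normalized, with 0 columns left unmatched to a sample.

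Every comparison had a fit of its own, with edgeR 4.0.16 in R 4.3.3 (TMM, filterByExpr with a minimum count of 10 and a minimum total of 15, glmQLFit and glmQLFTest). Standard errors were obtained from the log2 fold change and the F statistic of the test. Differences of the RA effect were tested as interaction terms over the libraries of both time points, called at an adjusted p under 0.01 alone. Levels use TMM factors over all 45 libraries, and CPM per kb uses merged exon lengths of GENCODE M21. The fits were first tested on simulated counts.

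The genes, the lists and the rules for naming genes were chosen with earlier results of these data known. Named were the 9 genes, their relatives, the 4 list genes with the largest change at 42 h among those called with a mean of at least 1 CPM, the 2 genes of most similar course, Cyp26a1 and Rarb. Other list genes are named where a count is given, after their values were seen. Replicate numbers pair samples only at 66 h by the criterion used, where the correlation of deviations was 0.213 to 0.521 and above 0.1 in each pair. The alternatives were RLE factors, library totals, no filter, at least 10 counts in every library, DESeq2 1.42.0, an edgeR fit of all 45 libraries, the replicate block, an adjusted p under 0.05 with no minimum fold, the library number series, Spearman correlation and each library left out. Organoid shape was not analysed here, and 3 genes of the lists are not reported here.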

Additional observations from a re-analysis of the deposited data

Results flagged for a closer look

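Lhx5 and En2 had an RA effect that differed between time points. The RA effect at 78 h was above that at 42 h by 3.36 on the log2 scale for Lhx5 and by 2.49 for En2, with adjusted p-values of 0.00018 and 1.6e-05 in edgeR's test of the interaction. Both stayed called with each of the 12 libraries left out in turn, with 2.86 to 3.85 for Lhx5 and 2.34 to 2.65 for En2. Where each library had to hold 10 counts or more, Lhx5 was not tested. The libraries of the 2 time points belong to different series of library numbers, and the part of the series in this difference was not tested.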

How the results depend on the processing

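Of 571 log2 fold changes recomputed under other settings, 560 kept their direction and their side of the threshold, 8 lost their call, 3 gained one and 0 reversed. Of 586 recomputed with a library left out, 538 were alike, 16 lost a call, 7 gained one and 25 reversed, none of them called. Several levels rest on few counts, which limited the tests.

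Changes in the counts of members called are given by setting, without those that were small relative to the count. With at least 10 counts in every library, which removes genes low in an arm, the number higher with RA was 0 at 30 h, 1 at 42 h and 0 at 54 h. It was 1 for RA over day 2 at 18, 42 and 78 h, 1 for untreated 78 h over day 2, 0 for untreated 78 h over 42 h and 1 for the RA effect at 78 h over 42 h. An adjusted p under 0.05 with no minimum fold gave 2 higher and 1 lower (En1) with RA at 54 h and 5 higher at 66 h. For untreated organoids it gave 1 lower at 18 h, 2 lower at 42 h and 2 lower at 78 h against day 2, and 2 higher and 1 lower at 78 h against 42 h. It also gave 1 lower for RA at 18 h against day 2 and 1 lower for the RA effect at 78 h over 42 h. At 54 h, 2 were higher with no filter, with DESeq2 and with the fit of all 45 libraries, which also gave 2 higher at 30 h and 1 higher for untreated 42 h over day 2. The call of Hesx1 in untreated organoids at 42 h was lost, leaving 0 lower, with library totals, no filter, DESeq2, the fit of all 45 libraries and the replicate block. The replicate block changed no other call, and by the limit of 0.1 the correlations of deviations showed pairing at 66 h only. At 30 h they were 0.0904 to 0.225, the lowest just short of that limit. Each library there matched the one of its own replicate number best, which did not hold at 66 h. The causes were not tested.

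Leaving out single libraries, the number higher with RA was 0 to 1 at 8 h, 0 to 1 at 30 h, 0 to 2 at 54 h and 2 to 3 at 78 h. For untreated 78 h against day 2 the number higher was 2 to 3. The number lower was 0 to 1 for untreated 42 h and 1 to 2 for untreated 78 h and for RA 42 h, each against day 2, and 0 to 1 for untreated 78 h against 42 h. Log2 fold changes that reversed were near 0 or uncalled. With RA they were -0.35 to 0.80 for Emx2 at 8 h, -0.20 to 0.44 for Otx1 at 18 h, -0.47 to 0.46 for Hesx1 at 42 h, -0.082 to 0.30 for En2 at 54 h and -0.27 to 0.19 for En1 at 78 h. In untreated organoids Hesx1 had -0.49 to 0.060 at 18 h against day 2 and -0.18 to 0.40 at 78 h against 42 h. For the RA effect at 42 h over 18 h the ranges were -0.34 to 0.0089 for En2, -0.40 to 0.25 for Otx1, -0.086 to 0.40 for Lhx2 and -0.035 to 0.96 for Hesx1, and at 78 h over 42 h they were -0.044 to 1.00 for Hesx1 and -0.54 to 0.86 for Emx2.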
